A study of Mus musculus with 2 samples.

Results

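The miR-290 and miR-302 clusters are the microRNA genes best known from mouse embryonic stem (ES) cells, and the peaks of the chromatin protein TOBF1 around them were examined. A peak was taken when its midpoint lay within 30 kb of the RefSeq positions of Mir290a to Mir295 on chromosome 7 or of Mir302a to Mir302d on chromosome 3. This gave 14 of the 12181 peaks in the deposited list, 12 at the miR-290 cluster and 2 at the miR-302 cluster, and the members are 10 of the 1228 microRNA genes of the RefSeq table. The peaks come from 1 ChIP-Seq library of R1/E mouse ES cells, grown in serum-supplemented medium with LIF, a cytokine that keeps such cells undifferentiated. These cells carried TOBF1, the product of A830080D01Rik, tagged on a bacterial artificial chromosome, and the chromatin was crosslinked with formaldehyde and DSG and precipitated with an antibody against GFP. An input library of the same strain and construct, made with no antibody, was not analysed here. The peaks were chosen by their deposited positions, and the clusters with the number and scores of their peaks already known. There was 1 library and so no replicate error, and no test was made between the clusters, because peaks of 1 library are not replicates. No RNA was measured, so the expression of the clusters and the labelled cell type could not be checked. Neither precipitation from untagged cells nor a list of regions with raised signal was used, and the part of such signal in these peaks was not tested.

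MicroRNAs are short RNAs cut from hairpins in longer transcripts, and they lower the output of messenger RNAs that pair with their seed, the bases at positions 2 to 8. The miR-290 cluster, found in placental mammals, is transcribed from the early embryo onwards and is the main source of microRNAs in naive-type ES cells. The miR-302 cluster comes up later, as cells pass towards the epiblast state, and both are switched off on differentiation. Members of both act on cell cycle inhibitors such as Cdkn1a and shorten the pause before DNA replication, and the miR-290 locus is counted among the super-enhancers of mouse ES cells.

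The clusters lie on different chromosomes, and the mature sequences are shown for the seed that they share. They are given 5′ to 3′ as RNA from RefSeq (GRCm38.p6), for the 3p arms found in that table, with the seed in capitals.
miR-290a-3p: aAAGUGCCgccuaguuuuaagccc
miR-291a-3p: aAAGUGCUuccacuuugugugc
miR-293-3p: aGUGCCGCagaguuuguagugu
miR-294-3p: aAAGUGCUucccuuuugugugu
miR-295-3p: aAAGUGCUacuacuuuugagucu
miR-302b-3p: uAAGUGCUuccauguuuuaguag
miR-302c-3p: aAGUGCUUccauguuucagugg
miR-302d-3p: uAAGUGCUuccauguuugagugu
The seed AAGUGCU was shared by 5 of these 8 arms, 3 from the miR-290 cluster and 2 from the miR-302 cluster. Of the 1679 mature names in the table, 5 carried it, and these are the same 5. The 3p arms of Mir292a and Mir302a have no entry there, so these counts leave them out and are not the full set. The Mir302a hairpin holds the letters AAGUGCU, and that of Mir292a holds AAGUGCC. miR-302c-3p starts further along the shared stretch, so its seed reads AGUGCUU, while miR-290a-3p has AAGUGCC and miR-293-3p has GUGCCGC. Among the 5p arms of the members, no seed was shared between the clusters. CUUUAAC was the seed of miR-302b-5p, miR-302c-5p and miR-302d-5p, and CUCAAAC that of miR-290a-5p, miR-292a-5p and miR-293-5p. The remaining 5p arms each had a different seed: CUUAAAC in miR-302a-5p, AUCAAAG in miR-291a-5p, CUCAAAA in miR-294-5p and CUCAAAU in miR-295-5p.

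At the miR-290 cluster TOBF1 peaks were many, closely spaced and mostly of low to middle score, and at the miR-302 cluster there was 1 high peak beside the hairpins and 1 lower peak away from them. All 10 member genes had a peak midpoint within 1 kb, as did 2.77% of all microRNA genes (34 of 1228, the members and their 4 companions among them). Within 10 kb the share of all microRNA genes was 9.77%, and within 30 kb it was 20%. The members share their peaks within each cluster, so these are 2 loci and not 10 separate cases, and of 943 microRNA loci (genes at gaps of up to 10 kb joined) 21.6% had a peak within 30 kb. The windows were 62.2 kb and 60.5 kb long. At the mean peak density of chromosomes 7 and 3, windows of these lengths would hold 0.227 and 0.272 peaks. This takes peaks as evenly spread along a chromosome, and the clusters were chosen with their peak counts known, so it tests nothing.

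**Figure D1:**
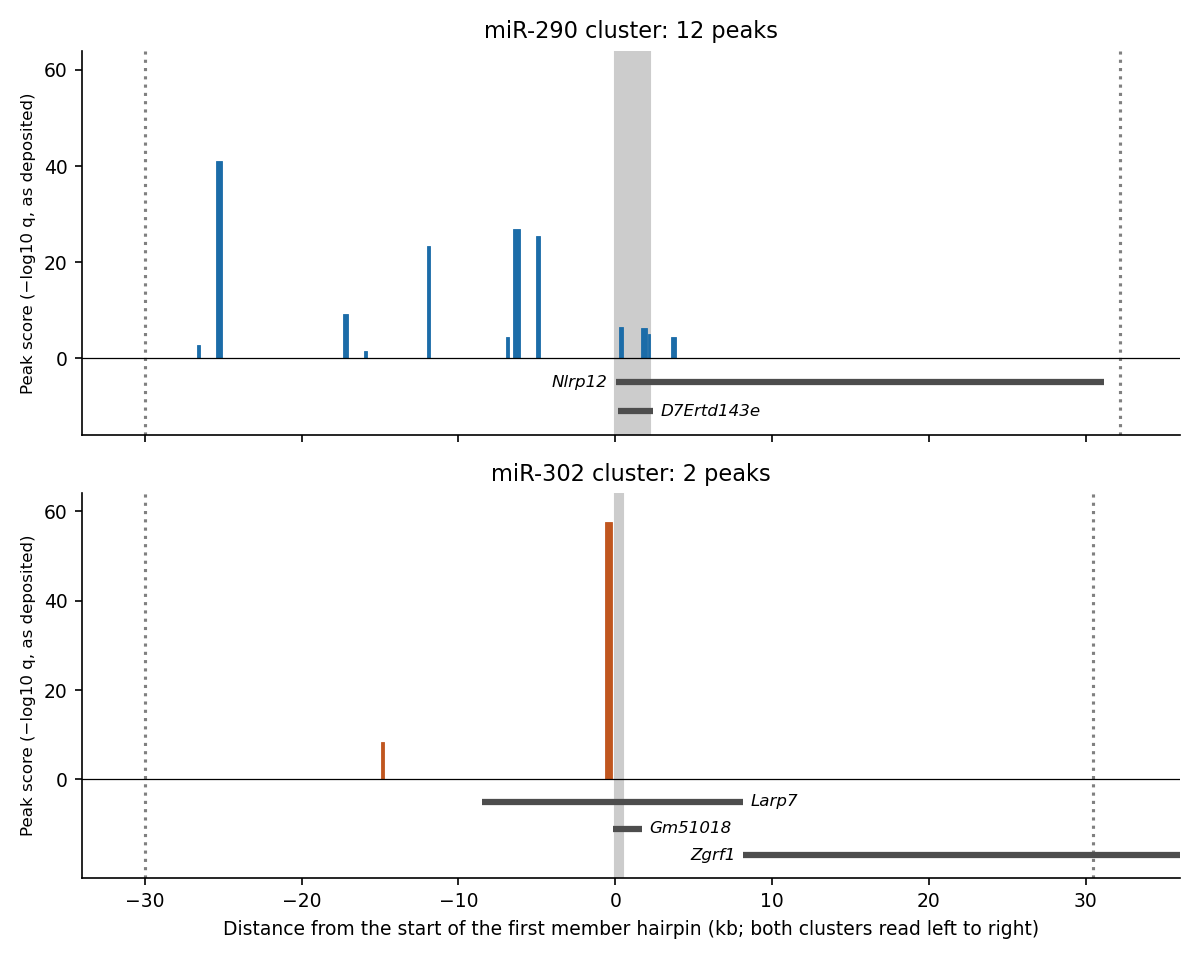
Score of each TOBF1 peak (vertical axis, −log10 q as deposited) against its distance in kb from the start of the first member hairpin, with the miR-290 cluster above and the miR-302 cluster below. Grey bands are the hairpin clusters, dotted lines the 30 kb limits and dark bars the annotated genes. Of the 12 peaks at miR-290, 8 lie to the left of the hairpins, and the peak with a score of 57.5 at miR-302 stands next to them.

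The transcribed strand of both clusters is the plus strand in RefSeq, so lower positions are upstream. Upstream of Mir290a lay 8 peaks, none of them in an annotated gene. The farthest had a score of 2.86 and a width of 152 bp (chromosome 7, 3191970 to 3192121) and lay 26.5 kb from the hairpin. Next to it, 25.1 kb from Mir290a, was the highest peak of the window, with a score of 41.0 and a width of 383 bp (3193146 to 3193528). Its score, the peak caller's own value read as −log10 of a q-value, was above that of 92.3% of the list. It thus stood far outside the hairpins and was separated from the following peak by the widest gap of the group, 7.75 kb.

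Closer to the hairpins, lower peaks again lay beside higher ones. The peaks at 17.0 kb and 15.9 kb from Mir290a had scores of 9.18 (width 310 bp, 3201278 to 3201587) and 1.56 (144 bp, 3202628 to 3202771). A single narrow peak followed at 11.8 kb, with a score of 23.4 and a width of 182 bp (3206628 to 3206809). Nearest to the cluster on this side stood 3 peaks close together. Their scores were 4.53 (225 bp, 3211646 to 3211870), 26.9 (448 bp, 3212112 to 3212559) and 25.4 (283 bp, 3213550 to 3213832), and they ended 6.76 kb, 6.07 kb and 4.79 kb before Mir290a. The first of these is 241 bp from the second, so a merging of peaks at gaps up to 1 kb would join all 3 into 1, since the other gap is 990 bp.

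Over the hairpins themselves there were 3 peaks, all of low score. The peak over Mir291a had a score of 6.59 (246 bp, 3218852 to 3219097), that over Mir293 6.25 (347 bp, 3220288 to 3220634), and that over Mir294 and Mir295 5.16 (170 bp, 3220695 to 3220864). They ranked above 29.2%, 27.1% and 18.5% of the list by score, but above 63.1%, 85.7% and 25% by width. Downstream there was 1 peak, 1.36 kb past Mir295, with a score of 4.34 and a width of 281 bp (3222198 to 3222478). Scores of the 8 upstream peaks ran from 1.56 to 41.0 with a median of 16.3, and the 3 over hairpins ran from 5.16 to 6.59, so the ranges overlapped. The 4 peaks at or above the list median of 9.97 were all upstream of the hairpins.

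**Figure D2:**
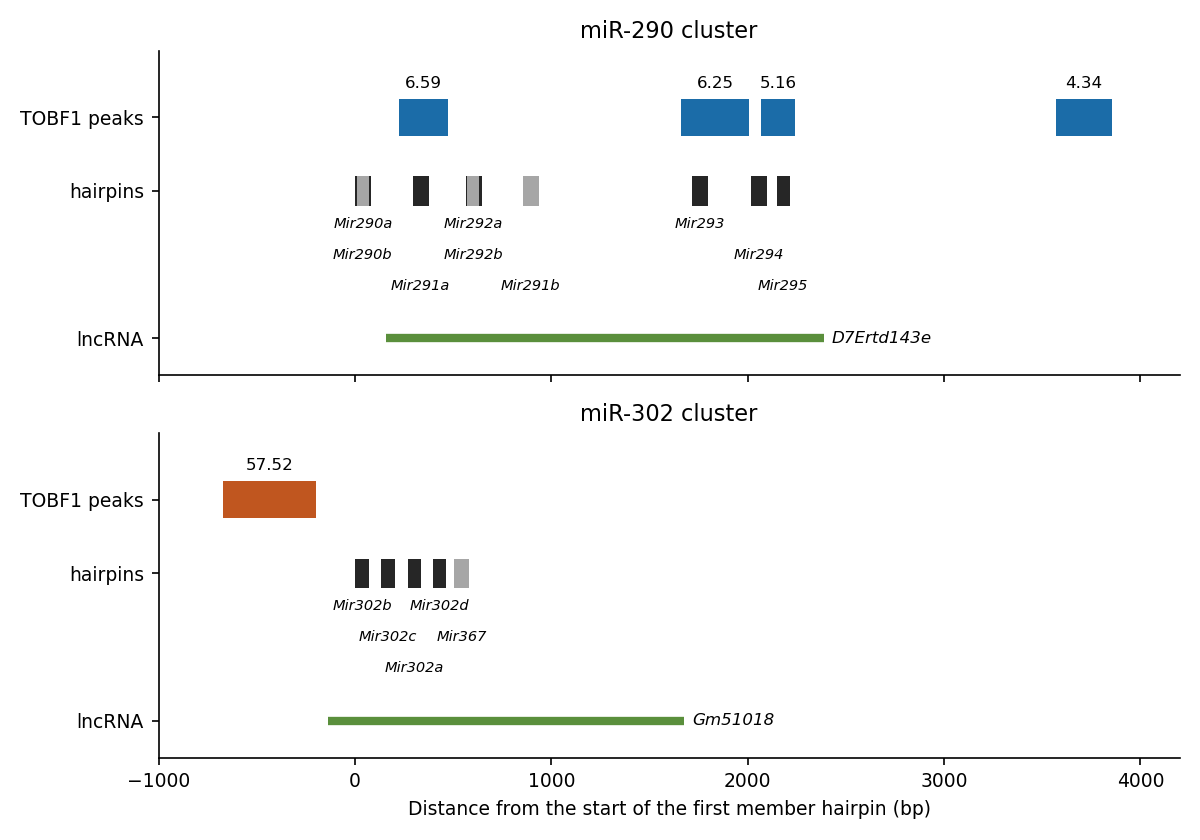
Positions of peaks (coloured boxes, with their scores), hairpins (dark boxes for members, light boxes for other microRNAs of the clusters) and annotated long non-coding RNAs (green) in bp from the start of the first member hairpin. Boxes at miR-290 cover Mir291a, Mir293 and Mir295 and part of Mir294, while at miR-302 the box ends before Mir302b.

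Of the 6 members of the miR-290 cluster, 4 had their hairpin in a peak, against 0.57% of all microRNA genes (7 of 1228). The other 3 such genes lay at other loci and are Mir1894, Mir150 and Gm25500. Because the 4 members are neighbours at 1 locus, the count by locus was 4 of 943. Mir291a (82 bp), Mir293 (80 bp) and Mir295 (69 bp) were covered entirely and Mir294 over 30 of its 84 bp, or 35.7%. Mir290a and Mir292a (Mir292 in RefSeq) were not covered, with peak midpoints 266.5 bp and 214.5 bp away, nor was the companion Mir291b at 507.5 bp. Mir290b and Mir292b, hairpins annotated on the opposite strand within Mir290a and Mir292a, were uncovered too. The hairpins are shown for the members in peaks that have an entry in the table, as RNA 5′ to 3′ with every base that lies in a peak in capitals.
Mir293: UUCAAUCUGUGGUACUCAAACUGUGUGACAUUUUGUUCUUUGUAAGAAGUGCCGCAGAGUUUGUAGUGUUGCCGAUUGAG
Mir294: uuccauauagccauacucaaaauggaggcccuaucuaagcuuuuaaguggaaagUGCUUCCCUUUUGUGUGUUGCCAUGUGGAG
Mir295: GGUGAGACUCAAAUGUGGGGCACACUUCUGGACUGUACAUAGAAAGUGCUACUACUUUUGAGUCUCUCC
The boundary in Mir294 falls within the 3p arm, of which 18 of 22 bases were in the peak. The pair of peaks on either side of this point was separated by 60 bp, the smallest gap in the window.

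At the miR-302 cluster the peak beside the hairpins had a score of 57.5, above 96.5% of the list, and a width of 476 bp, above 94.9% (chromosome 3, 127544555 to 127545030). It ended 198 bp before Mir302b, the first hairpin, and covered none of the 4 members. Midpoint distances were 435.5 bp for Mir302b, 570.5 bp for Mir302c, 703.5 bp for Mir302a and 831.5 bp for Mir302d, and 940.5 bp for the companion Mir367, whose seed AUUGCAC belongs to the family of miR-25 and miR-92a. The other peak lay 14.8 kb upstream of Mir302b, with a score of 8.40 and a width of 163 bp (127530290 to 127530452), and in no annotated gene. No peak was listed in the 30 kb downstream of the hairpins.

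Both clusters sit in annotated long non-coding RNAs, and the peaks lay differently at their starts. Gm51018 (chromosome 3, 127545089 to 127546903) holds all 5 hairpins of the miR-302 cluster, and the strong peak ended 59 bp before its annotated start. D7Ertd143e (chromosome 7, 3218784 to 3221015) holds the miR-290 hairpins from Mir291a on, whereas Mir290a lies before its annotated start, so that start need not be where the primary transcript begins. The nearest peak there began 68 bp after the start. Both windows of 250 bases before to 50 after the annotated start are shown from RefSeq (GRCm38.p6, plus strand), since the data bear on these places. In the first, capitals mark the 192 bases that lie in the peak; in the second, which is 18 bases short of the nearest peak, capitals mark the hairpin of Mir290a.
Gm51018, chr3:127544839-127545138: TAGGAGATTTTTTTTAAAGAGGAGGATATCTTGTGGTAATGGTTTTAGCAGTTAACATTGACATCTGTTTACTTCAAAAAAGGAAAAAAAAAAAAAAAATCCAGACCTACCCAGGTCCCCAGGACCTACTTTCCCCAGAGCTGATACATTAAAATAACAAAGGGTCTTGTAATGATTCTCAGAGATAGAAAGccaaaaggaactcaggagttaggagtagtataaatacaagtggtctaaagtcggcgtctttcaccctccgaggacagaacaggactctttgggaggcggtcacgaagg
D7Ertd143e, chr7:3218534-3218833: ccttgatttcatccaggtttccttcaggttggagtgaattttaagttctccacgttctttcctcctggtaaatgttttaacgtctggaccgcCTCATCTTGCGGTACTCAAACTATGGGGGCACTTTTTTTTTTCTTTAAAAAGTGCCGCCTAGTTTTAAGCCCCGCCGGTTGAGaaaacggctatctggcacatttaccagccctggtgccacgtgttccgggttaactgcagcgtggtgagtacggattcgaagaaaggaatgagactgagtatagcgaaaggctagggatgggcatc

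The GC content was 40.3% in the Gm51018 window and 47.7% in that of D7Ertd143e, below the median of 52.7% over the 32851 promoter windows of the table, and the number of CG pairs was 5 and 14 against a median of 7. Both strands were searched for 6 motifs chosen with the sequences at hand. The letters TATAAA were found once in the Gm51018 window, beginning 30 bases before the annotated start and outside the bases in the peak, and 13.6% of all windows hold them. CACGTG, the E-box read by Myc and Max among others, was found once in the D7Ertd143e window, 39 bases before the start, and 7.15% of all windows hold it. The octamer ATGCAAAT (1.74% of windows), CATTGT of Sox factors (12.6%), AAGGTCA of Esrrb (4.72%) and AGATCAAAG of TCF factors (0.344%) were in neither window. Only these exact letters were searched, so other forms of the same sites may be present. Sequence of the other peaks was not used here.

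Peaks lay closer together at miR-290 than at miR-302, with 12 peaks against 2 in windows of nearly equal length. The gaps between the 12 peaks at miR-290 ran from 0.06 to 7.75 kb with a median of 1.19 kb, where the median gap between neighbouring peaks on chromosome 7 was 158.5 kb. Of all gaps on that chromosome, 13.9% were no wider than the widest of these. The gap between the 2 peaks at miR-302 was 14.1 kb, against a median of 99.4 kb on chromosome 3, and 20.1% of gaps there were no wider. Windows of 62.2 kb and 60.5 kb cannot hold a gap as wide as either chromosome median. That gaps in the windows were below these medians was therefore fixed by the rule. Widths ran from 144 to 448 bp at miR-290 (median 263.5 bp) and were 163 and 476 bp at miR-302, and the list had a median of 216 bp with quartiles of 170 and 286 bp. Peaks covered 3171 bp, or 5.10%, of the miR-290 window and 639 bp, or 1.06%, of the miR-302 window. Median scores were 6.42 over 12 peaks and 33.0 over 2, so the cluster with more peaks had the lower median, with ranges of 1.56 to 41.0 and 8.40 to 57.5 that overlapped.

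**Figure D3:**
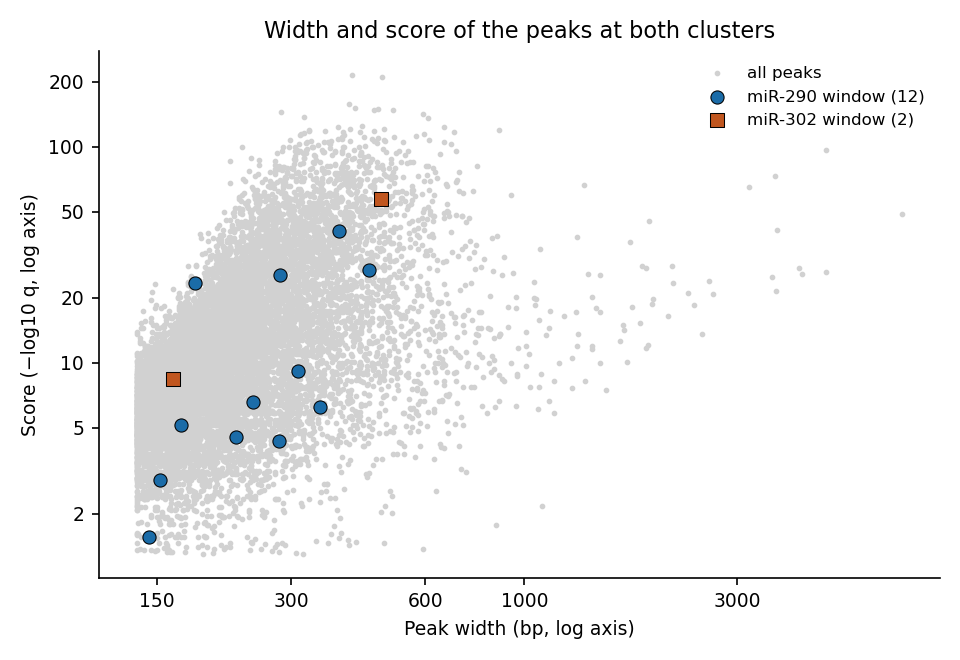
Width in bp (horizontal, log axis) and score (vertical, log axis) of every deposited peak in grey, with the 12 peaks of the miR-290 window as circles and the 2 of the miR-302 window as squares. The 14 peaks spread over much of the list's range, from a score of 1.56 at 144 bp to 57.5 at 476 bp.

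A wider limit would have added no peak up to 100 kb, while a limit of 10 kb would have left 7 peaks at miR-290, without its highest, and 1 at miR-302. The peak farthest from its cluster inside the limit was 26.6 kb away at miR-290 (score 2.86) and 14.9 kb at miR-302 (score 8.40). The first peaks outside were 204.1 kb below (score 4.69) and 127.3 kb above (score 47.4) the miR-290 cluster, and 287.5 kb below (4.53) and 106.6 kb above (6.65) the miR-302 cluster. Both groups thus stood alone within 100 kb. The 12 peaks at miR-290 made up 1 of 64 dense regions of the chromosomes, in which 6 or more peaks follow each other at gaps up to 10 kb. This one spanned 30.5 kb (3191970 to 3222478). Counting it, 13 of the 64 had at least as many peaks. Peaks covered 10.4% of its length, where the median over dense regions was 21.3%, and its highest score of 41.0 was above their median highest score of 19.2.

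Protein-coding neighbours held few of these peaks. Nlrp12, which encodes an immune receptor of the NLR family, overlaps the miR-290 hairpins (3218643 to 3249771, on the opposite strand), and 4 peaks fell in it, the 3 over hairpins and the 1 downstream, all at its 3′ end. The remainder of its 31.1 kb held none. AU018091 and Myadm, the next protein-coding genes, lie 49.4 kb below and 68.2 kb above the cluster and had 0 peaks. Larp7, which encodes a protein that binds the 7SK RNA, spans the miR-302 hairpins (127536714 to 127553349, opposite strand), and the strong peak was the only one in it. Zgrf1 begins 7.71 kb past Mir302d and had 0 peaks.

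**Figure D4:**
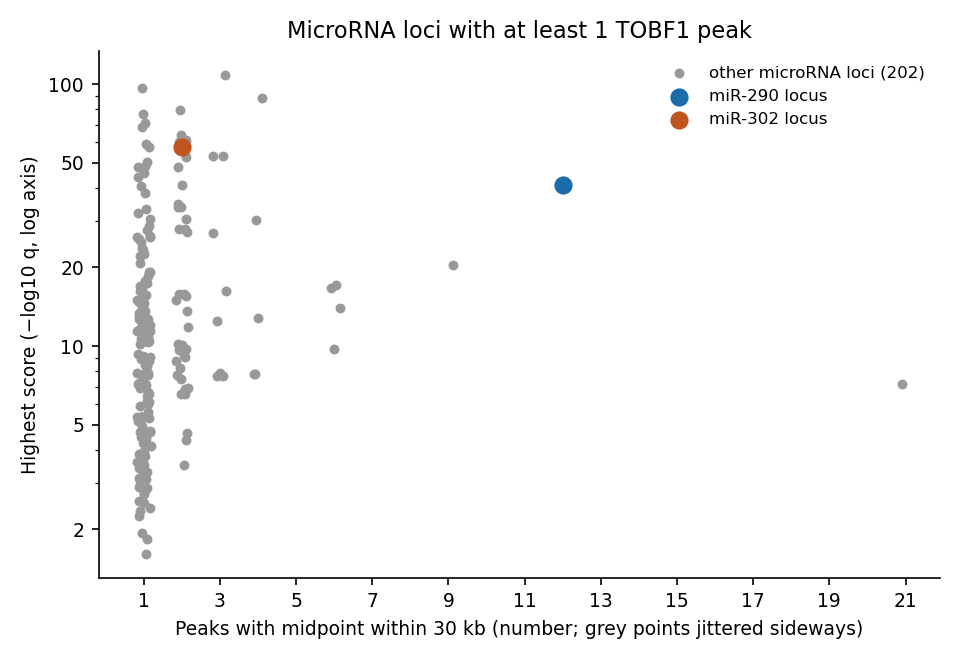
Each point is 1 of the 204 microRNA loci with a peak midpoint within 30 kb, by number of peaks (horizontal) and highest score (vertical, log axis). The miR-290 locus has 12 peaks, second to 1 locus with 21, and the miR-302 locus has 2 peaks with a highest score of 57.5.

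Set against all microRNA loci, the 2 clusters differed in number of peaks. Both had a highest score above the median of the other loci with a peak. By number of peaks the miR-290 locus ranked 2 of 943, behind Mir101c with 21 peaks, none above a score of 7.18. Its highest score ranked 23 among the 204 loci with a peak. The miR-302 locus ranked 13 by highest score, and 59 loci, itself included, had at least its 2 peaks. Of the 941 other loci, 739 had 0 peaks, 145 had 1, 37 had 2 and 20 had more. The median highest score over the 202 with a peak was 10.4. Since the clusters were chosen with these values known, the ranks describe them and test nothing.

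Among 30 other microRNA genes of ES cells, 9 (30%) had a peak within 10 kb, against 9.77% of all microRNA genes, but these came from 2 of 11 loci. One was the Mir17 locus, source of growth-promoting microRNAs, where 6 genes had the same 2 peaks with a highest score of 3.51. The other was the locus of Mir182, Mir96 and Mir183 with 1 peak of 13.9. The median of the 9 highest scores was 3.51, where that over all microRNA genes with a peak was 10.6. No gene of the Mir106b, Mir106a, Mir200b, Mir148a or Mir21a loci had one, and none of the 30 genes had more than 2 peaks within 30 kb, where miR-290 had 12. Among 30 microRNA genes of differentiated cells, 6 (20%) had a peak within 10 kb, at 4 of 25 loci. These were the neural Mir124a-2 (59.1) and Mir9-2 (52.6), Mirlet7g (53.2), and the Mirlet7a-1 locus (7.18), with let-7 being the family that opposes the miR-290 microRNAs in ES cells. In each of these microRNA lists, 3 genes had a peak within 10 kb that reached the median score of all peaks. In the first list these were Mir182, Mir96 and Mir183, which share 1 peak. In the second they were Mir124a-2, Mir9-2 and Mirlet7g, which lie at separate loci. The share of all microRNA genes at this score limit is not given here.

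Genes that make or use microRNAs had a peak in the gene or within 10 kb in 10 of 21 cases (47.6%), against 21.6% of all protein-coding genes. The listed genes were longer, with a median of 53.1 kb against 17.2 kb, and the part of length in this share was not tested. The median highest score of the 10 was 12.7, and that of all protein-coding genes with a peak was 12.2. Highest were Tnrc6b (66.1) and Tnrc6c (44.7), which encode partners of Argonaute, Dis3l2 (38.6), an exonuclease for uridylated let-7 precursors, and Drosha (18.1), the nuclease that cuts hairpins from primary transcripts. Dgcr8, the partner of Drosha, had 1 peak of 11.5. Lin28a and Lin28b, which block let-7 maturation, had 1 peak each of 5.996 and 5.137, and Dicer1 had none within 10 kb.

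Of 14 genes reported as targets of the shared seed, 6 (42.9%) had a peak within 10 kb, against 21.6% of all protein-coding genes. In 3 of them a peak reached the median score of the list, and the share of all protein-coding genes at that score limit is not given here. The median highest score of the 6 was 10.2, against 12.2 over all protein-coding genes with a peak, and the median length of the 14 genes was 17.9 kb, against 17.2 kb. Lats2, a kinase of the Hippo pathway, had 1 peak of 48.7, Arid4b, a chromatin protein, 1 of 25.5, and the Wnt antagonist Dkk1 1 of 12.3. Lefty2, an inhibitor of Nodal signalling, had 1 of 8.05. The cell cycle inhibitor Cdkn1a had 1 of 1.86, among the lowest of the list, and Rbl2, Casp2, Akt1 and Tgfbr2 had none within 10 kb. These lists describe where peaks lay, and no effect of the microRNAs was measured.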

How the data were processed

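ChIP-Seq was made from R1/E mouse ES cells with BAC-tagged TOBF1. Per the submitters' processing notes, the tools were cutadapt, Bowtie2, MACS2 and bedtools and the build mm10. The sources used here give no versions, settings or read depth, and do not state whether the input entered the peak call. Each peak in the deposited list has a position, a name and a score. The deposited score, computed by the peak caller the authors used, was taken to be −log10 of a q-value, since the lowest, 1.30, lies just above −log10 of 0.05. The number of reads behind each peak is unknown. Scores were used only within the list.

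Gene positions came from RefSeq GRCm38.p6, whose chromosomes are those of mm10, and sequences from RefSeq tables of that assembly. Of the 12181 peaks, 169 on scaffolds were left out of counts. A peak was counted where its midpoint lay within 30 kb of a cluster or microRNA gene, or within 10 kb of a gene of the other lists. Positions count from 1. The members and lists were chosen with earlier results of these data known. Named genes were the members, their 4 companions, genes in the windows, the 5 microRNA loci with the most peaks, and up to 4 genes per list with the highest scores; further list genes, Mir1894 and Mir150 were chosen after their values were seen. Every listed gene matched RefSeq, Mir292a and Mir142a as Mir292 and Mir142. No test was run, since 1 library was analysed and the rule used the peaks. Counting was checked on simulated peaks. Alternatives were other windows, peaks whose score reached the list median, any overlap, merged peaks and spans with the companions. Python 3.11.15, NumPy 2.4.6, pandas 2.3.3 and matplotlib 3.10.9 were used.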

Additional observations from a re-analysis of the deposited data

How the results depend on the processing

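The count of 12 peaks at the miR-290 cluster fell to 7 with a window of 10 kb and to 4 when a peak had to reach the median score of the list, and was 9 after merging peaks at gaps up to 1 kb. The count of 2 at the miR-302 cluster fell to 1 under either of the first alternatives. Neither count changed with a window of 100 kb, with any overlap or with the span of the companion microRNAs. All 10 member genes had a peak under each alternative run on them. Under the same score limit, genes with a peak within 10 kb fell from 9 to 3 among other microRNAs of ES cells, from 6 to 3 among microRNAs of differentiated cells and from 6 to 3 among reported targets; the 10 processing genes became 7. Within 30 kb the 2 microRNA lists had 11 of 30 genes (36.7%) and 7 of 30 (23.3%), against 20% of all microRNA genes. Within 30 kb of reported targets there were peaks at 8 of 14 genes, and of processing genes at 14 of 21. The share of all protein-coding genes within 30 kb is not given here, nor is any share of all genes at the score limit. The alternatives count peaks by different rules, and what lies behind the changed counts was not tested. No paired analysis was possible because the list comes from 1 library. Scores below the threshold of the peak call are not in the list, so a weaker site at either cluster cannot be seen.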

Other observations

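The microRNA loci with the most peaks within 30 kb, after Mir101c and the miR-290 locus, were Gm24148 on chromosome 1 with 9 peaks and a highest score of 20.5, and 4 loci with 6 peaks each. Mir6992 on chromosome 19 led these by score (17.0), ahead of Gm25500 on chromosome 9 (16.6), Mir5618 on chromosome 9 (13.9) and the locus of Mir150 and Mir5121 on chromosome 7 (9.72). The 21 peaks at Mir101c lay around chromosome 9, 3038669 to 3038743, and 10 of them were within 10 kb of the gene. None of the 21 scored above 7.18. No list of regions with raised signal was used, and the part of such signal in these loci was not tested.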
